A study of Mus musculus with 55 samples.

Results

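The 7 ketosteroid reductase genes examined in mouse liver were chosen by gene symbol from the 37620 genes of the expression tables and comprised 6 genes of the aldo-keto reductase 1C family (Akr1c6, Akr1c12, Akr1c13, Akr1c14, Akr1c19 and Akr1c20) and Akr1d1. RNA of the polyadenylated fraction had been sequenced from 55 naive male livers of the Collaborative Cross (CC), a panel of recombinant inbred lines that descend from several founder strains, so that mice of 1 line are near-identical genetically. The mice came from 29 lines, with 1 mouse in 8 lines, 2 mice in 16 and 3 mice in 5. They were 8 to 11.9 weeks old, weighed 12.8 to 38.0 g and had received no treatment, so that line is the only grouping, and each line is 1 genotype rather than a test of any 1 allele.

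Aldo-keto reductases are cytosolic enzymes that use NADPH or NADH to reduce carbonyl groups, and those of the 1C family act mainly on keto groups and hydroxyl groups of steroid hormones. Akr1d1 reduces the ring double bond of ketosteroids, which clears steroid hormones and is a step in the synthesis of bile acids from cholesterol. Both activities are characteristic of hepatocytes, the main cell of the liver. In the mouse the 1C genes arose by tandem duplication, and near-identical copies share sequencing reads.

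The 6 Akr1c genes lay within 474.3 kb of chromosome 13, from 4048257 to 4522590 (mm9, the build of the files). Akr1c14 came first, on the plus strand from 4048257 to 4089668. Akr1c13 followed on the plus strand, from 4190430 to 4204842. Akr1c19 occupied 4227946 to 4247927 on the plus strand, between Akr1c13 and Akr1c12. Akr1c12 was on the minus strand from 4267418 to 4278679. Akr1c6, on the plus strand, ran from 4433552 to 4456776, and Akr1c20, on the minus strand, from 4486218 to 4522590. A further gene of the family, Akr1c18, lay inside this span, from 4131861 to 4149900. Akr1d1 was on chromosome 6, from 37480173 to 37518815 on the plus strand.

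Akr1c12 and Akr1c13 were the closest pair, with 96.19% identity and 37 differences over 972 coding bases. The stretch of their coding sequences with the most differences is shown because it holds 9 of them within 60 bases, coding bases 343 to 402 of exons 3 and 4, with the differing bases in capitals. It lies at chr13:4273638-4274996 (minus strand) in Akr1c12 and at chr13:4194013-4195711 (plus strand) in Akr1c13, with an intron inside both intervals.
Akr1c12: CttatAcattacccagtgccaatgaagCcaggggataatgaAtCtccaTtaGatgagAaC
Akr1c13: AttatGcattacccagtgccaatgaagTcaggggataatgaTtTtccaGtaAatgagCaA

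The longest stretch without a difference had 228 bases, coding bases 34 to 261 of exons 1 to 3 (chr13:4275078-4278569 in Akr1c12 and chr13:4190506-4193931 in Akr1c13). It is shown because no read that falls wholly inside it can be told apart between the genes, and it has no capitals.
Akr1c12 and Akr1c13: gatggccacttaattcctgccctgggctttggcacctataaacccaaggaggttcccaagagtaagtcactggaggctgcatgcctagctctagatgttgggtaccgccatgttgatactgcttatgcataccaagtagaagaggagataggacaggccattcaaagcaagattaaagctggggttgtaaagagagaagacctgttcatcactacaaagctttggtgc

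Of the 50-base windows of the isoform with the highest mean share of each gene, 347 were identical between both genes, 28.5% of the windows of Akr1c12 and 29.5% of those of Akr1c13. Akr1c6 and Akr1c20 were 92.28% identical in coding sequence and shared 28 windows (2.08% and 2.44%). Akr1c14, Akr1c19 and Akr1d1 shared no window with another annotated protein-coding gene. The fragment estimates showed the same division. They were whole numbers (within 0.001) in 55 of 55 mice for Akr1c14, Akr1c19, Akr1d1 and also Akr1c18, in 1 of 55 for Akr1c12 and for Akr1c13, and in 0 of 55 for Akr1c6 and Akr1c20. Values of Akr1c12, Akr1c13, Akr1c6 and Akr1c20 therefore rest in part on how RSEM, the quantifier, divided fragments shared between genes. Those of Akr1c14, Akr1c19 and Akr1d1 do not. Within genes of several isoforms, these 3 included, fragments were also divided among isoforms, on which FPKM and isoform shares rest in part.

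The 250 bases before the start sites of Akr1c12 and Akr1c13 are shown because these genes moved together in most lines and apart in the rest. They come from RefSeq on GRCm38.p6, another build than that of the expression files, at chr13:4279400-4279649 (minus strand) for Akr1c12 and chr13:4190937-4191186 (plus strand) for Akr1c13, both 5′ to 3′, with the differing bases in capitals (11 substitutions and 1 base found in Akr1c13 alone) and the unaligned ends in lower case.
Akr1c12: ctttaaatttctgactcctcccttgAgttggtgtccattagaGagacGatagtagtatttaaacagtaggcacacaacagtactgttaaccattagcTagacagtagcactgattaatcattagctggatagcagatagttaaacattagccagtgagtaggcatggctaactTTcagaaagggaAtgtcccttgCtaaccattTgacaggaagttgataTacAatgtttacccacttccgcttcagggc
Akr1c13: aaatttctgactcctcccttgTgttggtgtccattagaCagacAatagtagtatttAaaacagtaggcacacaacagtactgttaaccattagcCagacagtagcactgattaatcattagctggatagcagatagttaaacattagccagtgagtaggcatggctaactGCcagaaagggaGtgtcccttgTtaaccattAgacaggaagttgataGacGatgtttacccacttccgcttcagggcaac

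Of the 7 genes 6 had a RefSeq promoter of 300 bases, and Akr1c20 is named only. The motifs searched on both strands were TATAAA, the C/EBP core TTGCNNAA, the STAT5 core TTCNNNGAA and the HNF1 half-site GTTAAT, none of which is contained in another. Neither promoter of the pair held any of them. TATAAA was found in Akr1c6 (13.62% of all 32851 promoters of that length), TTGCNNAA in Akr1d1 (10.8%) and TTCNNNGAA in Akr1c19 (8.298%), while GTTAAT was in none of the 6 (7.099%). These matches are descriptions of letters and were not tied to a level.

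The libraries held 20.5 to 34.0 M fragments assigned to genes, with a median of 27.7 M. All 8 hepatocyte markers had a median of at least 1 FPKM (fragments scaled for the length of the transcript and the size of the library, a level per length), with a summed level of 20780 to 82120 FPKM per mouse. Of the 4 kidney markers 3 had a median of 0. So did 4 of 5 pancreas markers, but their sum reached 459 FPKM per mouse, with a median of 22.0. The sum of 5 cholangiocyte markers reached 208 FPKM, with a median of 27.5. In 42 of 47 mice with a line mate, the mouse with the most similar expression was a line mate, whereas this held for 1 of the 5 mice labelled IL-1052 or IL-2750, and 4 of these 5 were closest to a mouse of the other label. Counts of calls that moved by more than 1.5 times without both lines are therefore given. Line mates may share a cage or a day, which the labels do not state, so p-values measure the spread between mice as sampled.

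All 7 genes differed among lines. The edgeR quasi-likelihood F test on the 21 lines that have replicates (47 mice) called 7 of 7 at an adjusted p below 0.05, beside 88.5% of all 15285 genes tested, so that being called sets none of them apart. The adjusted p was 6.591e-18 for Akr1c12, 2.4e-10 for Akr1c19, 7.095e-07 for Akr1c13, 1.601e-06 for Akr1c6, 9.004e-05 for Akr1c14, 0.0001728 for Akr1c20 and 0.004523 for Akr1d1. How far line fixed the level varied more. The intraclass correlation, the share of the variance of rank-based scores that lies between lines, was 0.90 for Akr1c12, above 99.1% of the 11284 genes with a maximum of at least 2 FPKM. It was 0.87 for Akr1c19 (above 98.3%), 0.83 for Akr1c6 (96.5%), 0.71 for Akr1c13 (83.1%), 0.70 for Akr1c20 (81.9%) and 0.66 for Akr1c14 (74.6%). Akr1d1, the only gene outside the cluster, had 0.38, above 18.4% of genes. The median of the 7 was 0.71, and that of all these genes was 0.56. From leaving out each of the 47 mice with a line mate in turn, the jackknife standard error of the median of the 7 was 0.15. For single genes it was 0.24 for Akr1d1, 0.16 for Akr1c14, 0.13 for Akr1c13 and 0.11 for Akr1c20. It was 0.07 for Akr1c6, 0.05 for Akr1c19 and 0.04 for Akr1c12. The 8 lines with 1 mouse were not left out, so this error does not measure the choice of lines. The order depends on the scale, since on log2(FPKM + 1) Akr1c13 had 0.85 and Akr1c6 0.77, and Akr1c20 had 0.59 and Akr1c14 0.63.

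**Figure D1:**
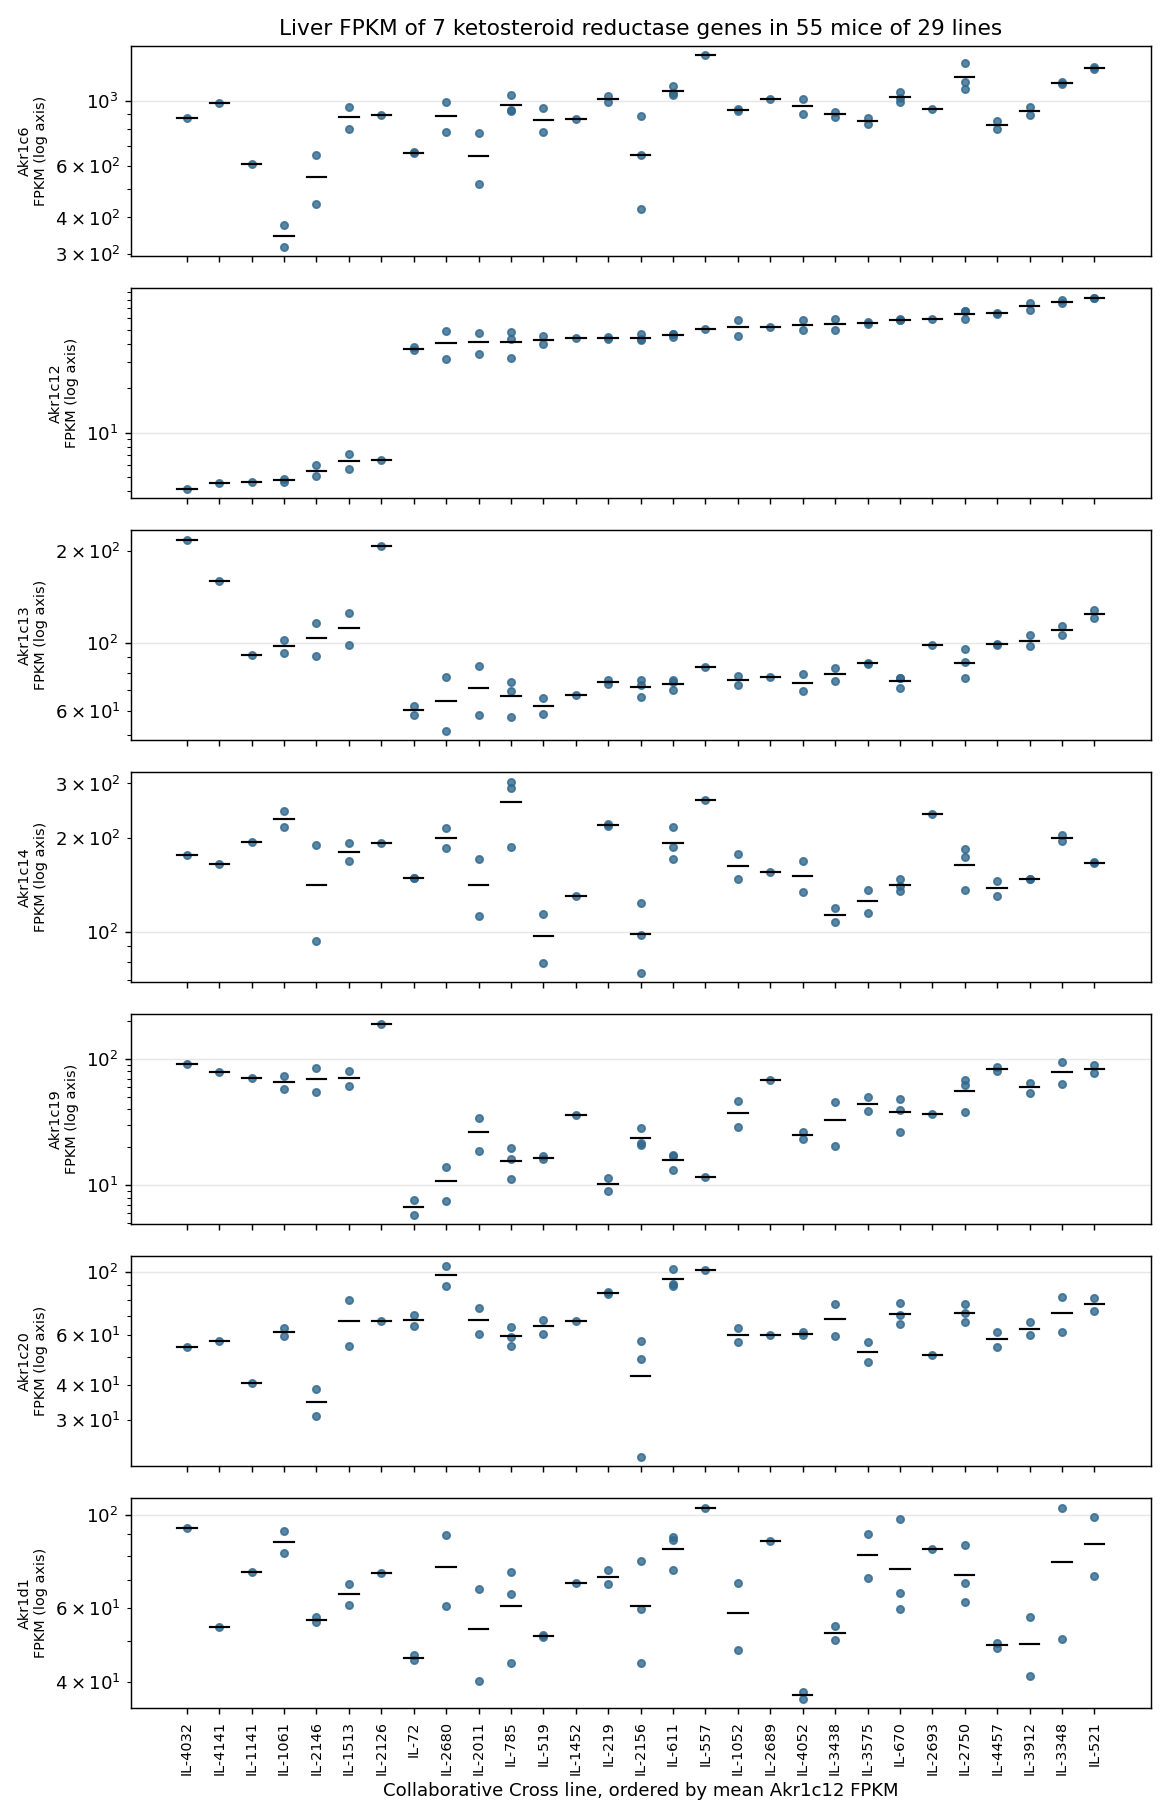
FPKM (log axes) of each gene in every mouse (points) with the line mean (black bars), for 29 lines ordered from left to right by mean Akr1c12. Akr1c12 steps up from 6.47 FPKM in IL-2126 to 37.2 in IL-72, while Akr1c13 and Akr1c19 are high at both ends of the order and Akr1d1 shows no step.

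Each line was also set against the mean of the other 28 on the log2 scale, with the same tool and all 55 mice. Of the 29 contrasts for each of the 7 genes, 47 were called higher and 33 lower in all and 123 were not called. Akr1c12 alone gave 22 of the higher and 7 of the lower calls. Over all genes 9.79% of such contrasts were called higher and 5.49% lower. These contrasts share mice, and lines with 1 mouse were assumed to vary like the others.

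Akr1c6, which oxidises and reduces sex steroids, had the highest level of the family in each line. Its FPKM ranged over the 55 mice from 318 to 1430 with a median of 924. Line means ran from 347 ± 40.7 FPKM (SD, n = 2) in IL-1061, whose mice had 376 and 318 FPKM, to 1430 in the 1 mouse of IL-557. IL-1061 stood below every other line, with IL-2146 next at 550 ± 149 (SD, n = 2), and this was the only step between neighbouring lines beyond 2 standard errors from the pooled spread of line mates. Akr1c6 was called lower in IL-1061 (log2 difference −1.29, adjusted p = 2.383e-06), IL-2146 (−0.60, adjusted p = 0.009123), IL-2011 (−0.49, adjusted p = 0.0348) and IL-2156 (−0.45, adjusted p = 0.01741), all by edgeR. It was called higher in IL-2750, IL-557, IL-521 and IL-611, by 0.36 to 0.63 on the log2 scale, but in 2 lines only without the filter on low counts.

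The 6 Akr1c genes together gave 808 ± 79.9 FPKM (SD, n = 2) in IL-1061 and 1943 FPKM in the mouse of IL-557, 2.40 times as much, with a median line at 1325 FPKM. Akr1c6 made up 42.9% of this sum in IL-1061 and 75.3% in IL-519, with a median of 68.7%, and was first in 29 of 29 lines. Akr1c14 was second in 27 lines and Akr1c13 in the other 2, IL-4032 and IL-2126. In IL-1061 the low share of Akr1c6 stood beside the highest share of Akr1c14, 28.6%, against a median of 12.4%.

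**Figure D2:**
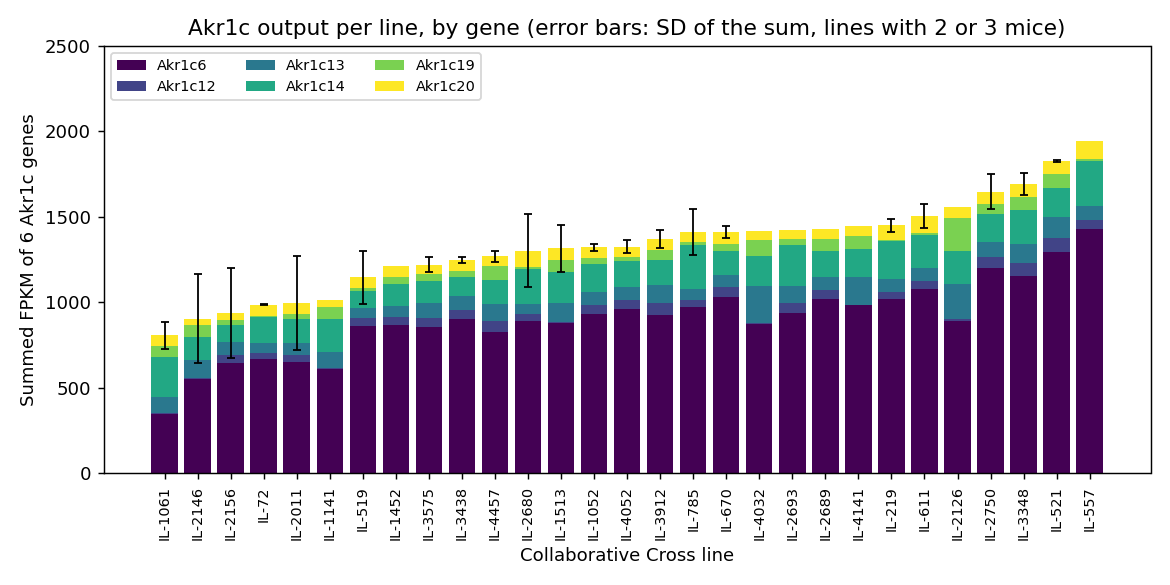
Summed FPKM of the 6 Akr1c genes per line, as stacked bars by gene with the SD of the sum in lines with 2 or 3 mice, in order of the sum. The sum runs from 808 in IL-1061 to 1943 in IL-557 and Akr1c6 is the largest segment in all 29 bars.

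Akr1c12 had 2 separate levels. In all, 7 lines had 4.16 to 7.12 FPKM in their 10 mice, and the other 22 lines had 31.7 to 82.6 FPKM in their 45 mice, with no mouse between. IL-4032 had 4.16 FPKM, IL-4141 4.57, IL-1141 4.63, IL-1061 4.63 and 4.84, IL-2146 5.98 and 5.03, IL-1513 7.12 and 5.65, and IL-2126 6.47. The gap up to the next line, IL-72 with 36.2 and 38.1 FPKM, was 2.35 on the log2 scale, 58.7% of the whole range of line means, and was the only step between neighbours beyond 2 standard errors. The highest line was IL-521 with 82.2 ± 0.665 FPKM (SD, n = 2), 19.8 times IL-4032. By edgeR each of these 7 lines was called lower, with log2 differences from −2.27 (IL-2126, adjusted p = 2.043e-10) to −3.12 (IL-4032, adjusted p = 7.892e-13), and each of the other 22 was called higher, since every contrast has the 7 lines in the mean it is set against. In these 10 mice Akr1c12 rested on 124 to 266 fragments, against 960 to 3030 in the other 45. The low values include fragments that were divided between Akr1c12 and Akr1c13, and their part in the result was not tested. Reads of all lines were aligned to mm9 alone. The part of sequence differences between founder strains in the levels and isoform shares reported here was not tested.

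Akr1c18 reduces progesterone to a weaker metabolite and is best known from the ovary. It split the lines at its own largest gap into the same sets, with 7 of 7 lines shared. It had 12.1 to 135 FPKM in the 10 mice with low Akr1c12 and 0 to 0.84 FPKM in the other 45. The line means were 12.1 FPKM in IL-4141, 28.3 in IL-4032, 46.7 in IL-2126, 83.2 in IL-2146, 89.8 in IL-1141, 114.5 in IL-1061 and 122.0 in IL-1513. Its fragment estimates were whole and ranged from 351 to 4795 in those 10 mice and from 0 to 27 in the 45. Because the lines form separate clusters for Akr1c12, no correlation over all 29 lines is given for it.

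Akr1c13, the near-copy of Akr1c12, was not low in these lines. It had 51.6 to 218 FPKM over the 55 mice, with a median of 78.0. The 3 highest lines, IL-4032 with 218 FPKM, IL-2126 with 208 and IL-4141 with 159, were all among the 7 with low Akr1c12, and each had 1 mouse. The other 4 of the 7 overlapped with the upper end of the 22, with IL-1141 at 91.7 FPKM, IL-1061 at 97.6 ± 6.69, IL-2146 at 104 ± 17.8 and IL-1513 at 112 ± 18.6 (SD, n = 2 where given). IL-521, with Akr1c12 at its highest, reached 124 ± 5.19 FPKM for Akr1c13 (SD, n = 2). The lowest line was IL-72 with 60.1 ± 2.81 FPKM (SD, n = 2). Akr1c13 was called higher in 5 lines and lower in 8 by edgeR (lower in 3 with only the lines of 2 or 3 mice), with the largest differences in IL-2126 (1.24 on the log2 scale, adjusted p = 7.799e-09) and IL-72 (−0.65, adjusted p = 5.614e-05).

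The ratio of Akr1c13 to Akr1c12 put both genes on 1 scale. It was 1.28 to 1.73 in the 22 lines and 17.5 to 52.5 in the 7, from IL-1513 to IL-4032. Over the 22 lines the genes followed each other closely, with r = 0.94 and rho = 0.94 for line means of log2(FPKM + 1) as a description without a test, since the gap in Akr1c12 itself chose these lines. Without the 2 lines farthest from the median, r was 0.90. Leaving out each line in turn gave r between 0.92 and 0.95. Within the 7 lines r was −0.03 and rho −0.11. These relations were chosen after the levels were seen, and the part of the divided fragments in them was not tested.

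**Figure D3:**
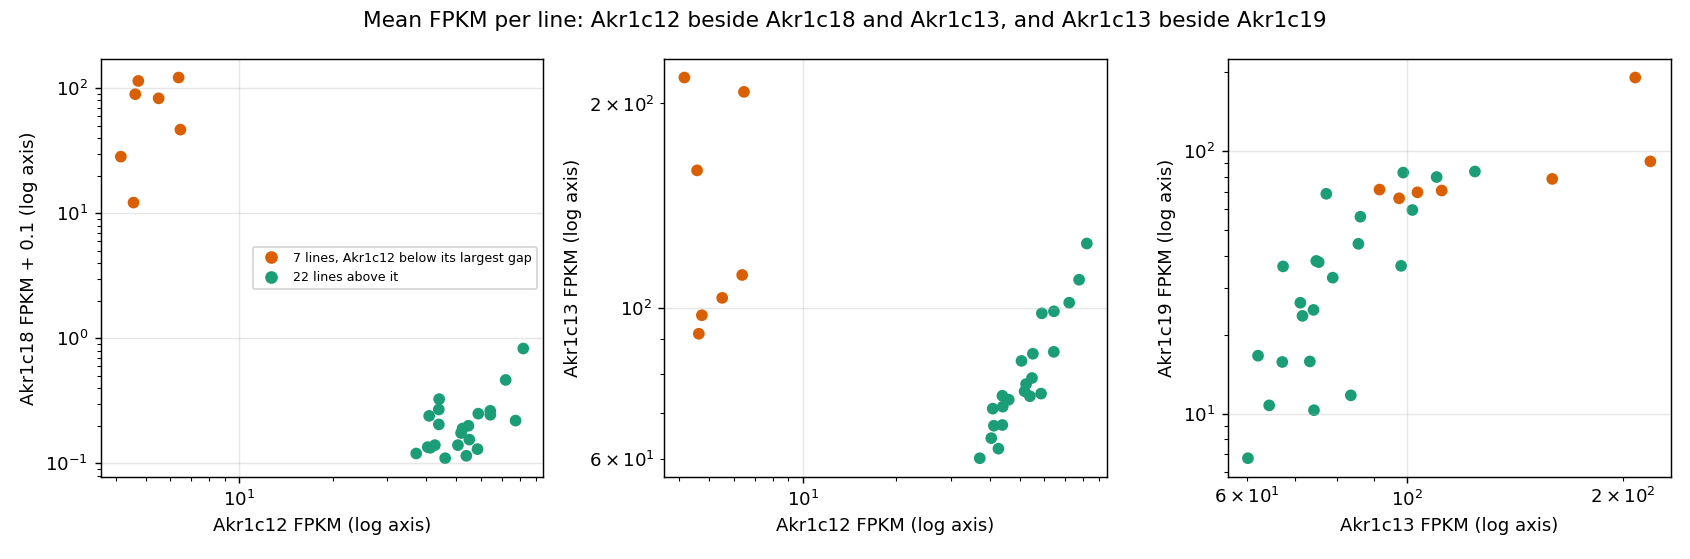
Mean FPKM per line on log axes, for Akr1c12 against Akr1c18 (left, with 0.1 added to Akr1c18), Akr1c12 against Akr1c13 (middle) and Akr1c13 against Akr1c19 (right), with the 7 lines below the largest gap of Akr1c12 in orange and the other 22 in green. The orange lines have 12.1 FPKM of Akr1c18 or more and sit apart from the narrow band in which Akr1c13 and Akr1c12 rise together, while in the right panel both colours overlap between 91.7 and 124 FPKM of Akr1c13.

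Akr1c19, whose main isoform shares no 50-base window with another gene, had the widest range. It had 5.86 to 191 FPKM over mice, with a median of 38.2. IL-72 was lowest with 6.76 ± 1.27 FPKM (SD, n = 2), followed by IL-219 with 10.3 ± 1.73 and IL-2680 with 10.7 ± 4.51. IL-2126 was highest with 191 FPKM in its 1 mouse, 28.2 times IL-72. Its step above the next line, IL-4032 with 91.35 FPKM, was the only one between neighbours beyond 2 standard errors. Both of these lines have 1 mouse, so that error comes from the spread within other lines. All 7 lines with low Akr1c12 lay at 66.1 FPKM or above for Akr1c19, but IL-521 at 83.6, IL-4457 at 82.8, IL-3348 at 79.6 and IL-2689 at 68.7 FPKM lay among them. By edgeR 12 lines were called higher and 8 lower, the most divided of the 7 genes after Akr1c12. The log2 difference was 2.47 in IL-2126 (adjusted p = 1.593e-08) and −2.62 in IL-72 (adjusted p = 4.184e-07). The summed level of 7 Kupffer cell markers, 15.2 to 406 FPKM per mouse, had r = −0.50 with Akr1c19 over line means. Over all 9 marker lists and the 6 genes other than Akr1c12, the other values of more than 0.4 in size were those of Akr1c6 with hepatocyte (0.41) and stellate cell markers (0.42) and of Akr1c20 with stellate cell markers (0.44). The part of these markers in the results was not tested.

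Among the 15 pairs of the 6 genes other than Akr1c12, 1 was called over the 29 line means, Akr1c13 with Akr1c19. Its r was 0.79 and rho 0.87 (permutation test, p = 1e-05, the smallest possible with 100000 permutations; adjusted p = 0.00595 over 595 pairs of 35 genes, of which 0.84% were called). Without the 2 lines farthest from the median of Akr1c13, r was 0.77. The relation held the same sign within the 22 lines, with r = 0.76 and rho = 0.79, and within the 7, with r = 0.75 and rho = 0.75, both as descriptions. Akr1c12 and Akr1c19 had r = 0.83 and rho = 0.85 within the 22 lines and r = 0.43 and rho = −0.11 within the 7. Akr1c6 and Akr1c20, the other pair with shared windows, had r = 0.56 over 29 lines with an adjusted p of 0.108 by permutation, and Akr1c14 and Akr1d1 had r = 0.53 with an adjusted p of 0.137, neither of which passed. Without IL-1061 the first of them passed (r = 0.70, adjusted p = 0.0149), and with TPM in place of FPKM both did (r = 0.62 and 0.58, adjusted p = 0.0251 and 0.0402).

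Akr1c14, which converts between keto and hydroxyl forms of dihydrotestosterone and related steroids, had 74.0 to 304 FPKM over mice, with a median of 168. IL-519 was lowest with 97.1 ± 24.7 FPKM (SD, n = 2), and IL-557 highest with 266 FPKM. No step between neighbouring lines exceeded 2 standard errors. Line mates differed by as much as 188 to 304 FPKM in the 3 mice of IL-785. That line was called higher by 0.75 on the log2 scale (adjusted p = 0.0002698, edgeR), as was IL-1061 by 0.59 (adjusted p = 0.01714). IL-2156, IL-519 and IL-3438 were called lower, by 0.56 to 0.76, and 1 line was without the filter on low counts or with only the lines of 2 or 3 mice. With limma on log2(FPKM + 1) 1 line was called higher in place of 2.

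Akr1c20 had 22.2 to 105 FPKM over mice, with a median of 63.5. IL-2146 was lowest with 34.7 ± 5.40 FPKM (SD, n = 2), and IL-557 was highest with 102. IL-611 with 94.5 ± 7.35 FPKM (SD, n = 3) and IL-2680 with 97.3 ± 11.4 (SD, n = 2) were called higher by 0.64 and 0.54 on the log2 scale (edgeR, adjusted p = 0.0006042 and 0.01653). IL-2146 and IL-2156 were called lower, by 0.81 and 0.60. IL-2156 and IL-2146 were thus called lower for both Akr1c6 and Akr1c20, which share a small part of their sequence.

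Akr1d1, the reductase of the bile acid pathway, had 36.5 to 104 FPKM over mice, with a median of 66.8. IL-4052 was lowest with 37.3 ± 1.03 FPKM (SD, n = 2) and IL-557 highest with 104. It was called in 1 of 29 lines, lower in IL-4052 by 0.82 on the log2 scale (adjusted p = 0.007724, edgeR), beside 5.49% lower calls over all genes. It had 2 lower calls without IL-1052 and IL-2750, with other size factors (RLE) and without the filter on low counts. Of all contrasts in either direction 17.9% were called in the first of these settings and 9.08% in the last. Line mates overlapped with most other lines, as in IL-3348 with 104 and 50.7 FPKM. By mean FPKM the highest line of Akr1c6, Akr1c14, Akr1c20 and Akr1d1 was IL-557, which has 1 mouse and so no spread of its own. In the edgeR contrasts its log2 difference was the largest only for Akr1d1 (0.54). It was exceeded by IL-2750 for Akr1c6 (0.63 against 0.58), IL-785 for Akr1c14 (0.75 against 0.55) and IL-611 for Akr1c20 (0.64 against 0.55).

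Isoform shares were analysed for genes with enough distinct values, and 4 of the 7 qualified. All 4 differed among the 21 lines by limma's F test on rank-based scores, beside 33.5% of 6650 genes. The adjusted p was 0.002997 for Akr1c13, 0.006234 for Akr1c14, 0.002854 for Akr1c19 and 0.01795 for Akr1c20. On percentages without the transformation the call of Akr1c20 was lost (adjusted p = 0.143). Akr1c12 has 1 annotated isoform, and the main isoforms of Akr1c6 and Akr1d1 held 95.4% to 99.2% and 94.7% to 99.9% of their gene in each mouse.

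The isoform ENSMUST00000118717 of Akr1c14 held 5.76% of the gene in IL-4141 and 32.8% in IL-2689, each with 1 mouse, with a median of 21.4% over mice. The lines with low Akr1c12 made up 5 of the 6 and 7 of the 8 lines with the lowest share, with IL-4457 the other one, at 12.5% ± 1.85 (SD, n = 2). The isoform ENSMUST00000021634 of Akr1c13 held 69.8% in IL-4141 and 89.1% ± 0.481 (SD, n = 2) in IL-519. Those lines made up 6 of the 6, 6 of the 8 and 7 of the 10 lines with its lowest share, and IL-2146 lay above IL-557, IL-785 and IL-72 at 80.1% ± 6.11 (SD, n = 2). The part of fragments divided with Akr1c12 in this share was not tested. The isoform ENSMUST00000081326 of Akr1c19 ranged from 85.0% ± 0.255 (SD, n = 2) in IL-519 to 99.4% in IL-557, whose Akr1c19 level is among the 4 lowest, and none of the lines with low Akr1c12 was among its 10 lowest. The isoform ENSMUST00000078239 of Akr1c20 ranged from 9.43% ± 0.792 (SD, n = 2) in IL-1513 to 19.7% in IL-4141, and 4 of its 10 lowest lines were ones with low Akr1c12. These ranks were counted after the levels were seen.

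**Figure D4:**
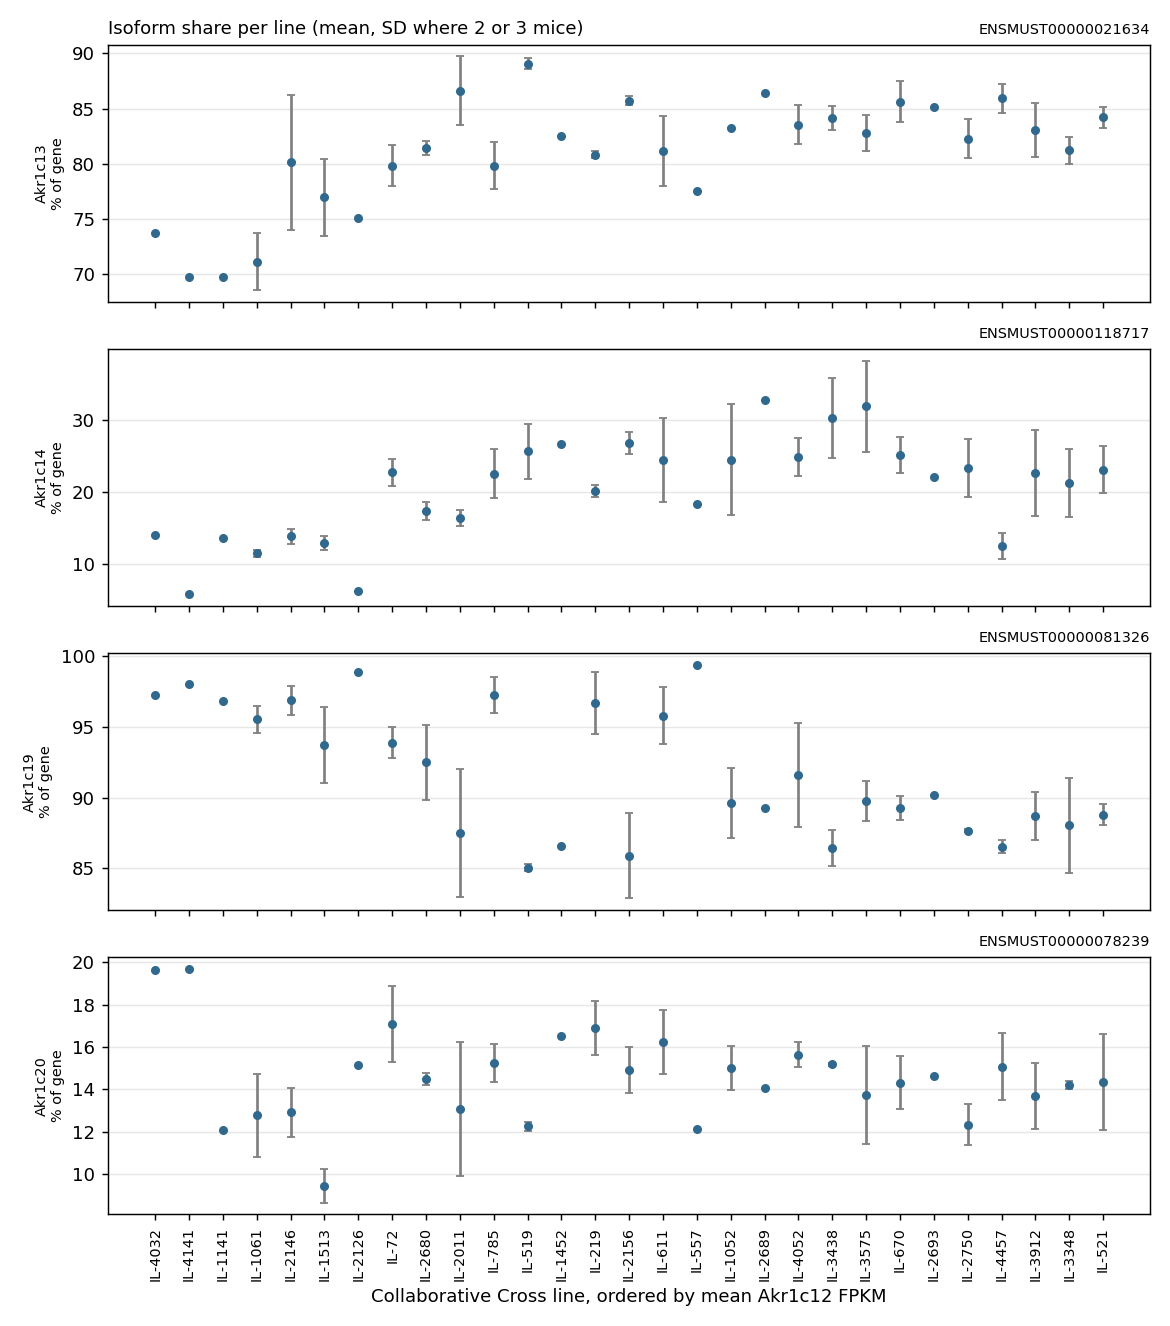
Share of the gene held by the tested isoform of Akr1c13, Akr1c14, Akr1c19 and Akr1c20 per line (mean, with SD where the line has 2 or 3 mice), in the same order of lines as the plot of levels. The share of ENSMUST00000118717 stays at or below 14.02% in the 7 lines at the left and reaches 32.8% in IL-2689.

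Of the other aldo-keto reductases 8 of 8 tested differed among lines by edgeR, beside 88.5% of all genes. Akr1a4, a general aldehyde reductase, varied little, from 202 FPKM in IL-1452 to 342 in IL-4032. Akr7a5 ranged from 27.4 ± 4.09 FPKM (SD, n = 2) in IL-2680 to 88.7 ± 29.7 (SD, n = 2) in IL-1052. Akr1e1, the neighbour of the cluster on chromosome 13, ranged from 0.697 ± 0.440 FPKM (SD, n = 3) in IL-785 to 23.3 ± 0.990 (SD, n = 2) in IL-3348. Its fragment estimates were whole in 5 of 55 mice, so these values rest in part on divided fragments. Akr1b3, aldose reductase, was at 0.29 FPKM in IL-4032 and 9.72 ± 2.68 (SD, n = 2) in IL-2680, but it shares 72.9% of its windows with Gm6736. Akr1b7 stayed at or under 2.99 FPKM in each mouse.

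Of 14 genes of bile acid synthesis 12 differed among lines and of 16 genes of hepatic steroid metabolism 16 did, by the same edgeR test that called 88.5% of all genes. The median intraclass correlation was 0.51 for the first list and 0.63 for the second. Among the genes of both lists with enough distinct levels to be kept as traits, which leaves out Sult1e1 (0.78), the highest values were those of Cyp17a1 (0.85), a steroid hydroxylase, Hsd3b2 (0.81), a hydroxysteroid dehydrogenase, Slc27a5 (0.73), which activates bile acids, and Hsd17b12 (0.72). The lowest of the kept genes were those of Hsd17b4 (0.33), Slc27a2 (0.39), Amacr (0.39) and Hsd17b13 (0.40). Akr1d1 had 0.38, with a jackknife standard error of 0.24 over mice. Its values were 0.31 to 0.53 as each of 47 mice with a line mate was left out.

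Of the 174 pairs between a member and a gene of these lists, 2 passed over the 29 line means, beside 0.84% of all 595 pairs. Akr1c19 was lower where Hsd3b7, the dehydrogenase that precedes Akr1d1 in bile acid synthesis, was higher (r = −0.64, permutation test, adjusted p = 0.0159; rho = −0.54 with an adjusted p of 0.136). Without the 2 lines farthest from the median of Akr1c19, r was −0.47. Akr1d1 and Baat, which conjugates bile acids to amino acids, were higher together (r = 0.61, permutation test, adjusted p = 0.0488; rho = 0.57 with an adjusted p of 0.115), with r = 0.63 without 2 lines. By ranks neither relation passed. Of all genes with a maximum of at least 2 FPKM, 0.20% had a lower r with Akr1c19 than Hsd3b7 had. With Akr1d1, 99.8% had a lower r than Baat had.

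The genes whose line means were most like each member were found by Pearson's r over 29 lines among genes with a maximum of at least 2 FPKM, as a description without a test, since all values of a line come from the same libraries. For Akr1c6 these were Ghr, the growth hormone receptor (r = 0.72), Fabp2, a fatty acid binding protein (0.72), and Trappc6b (0.70). For Akr1c13 they were Chchd3 (0.87), Atp5c1 (0.83), both of mitochondria, and Pa2g4 (0.83), all above the r of Akr1c13 with Akr1c19. For Akr1c14 they were the glucuronosyltransferases Ugt2b5 (0.72) and Ugt2b36 (0.66) and the epoxide hydrolase Ephx1 (0.68). Akr1c19 was closest to Akr1c13 itself (0.79), Fahd2a (0.78) and Gtf2h1 (0.75). Akr1c20 had its strongest relation with Tnfrsf1a, a receptor for tumour necrosis factor, in the opposite direction (r = −0.76), then Tmem30a (0.71) and Cycs (0.70). For Akr1d1 they included Gphn (0.75) and Aldh6a1 (0.74). For Akr1c12 the same rule gave Akr1c18, 1600012F09Rik and Eif2b3, with no r printed because its lines form 2 clusters.

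By limma on the 29 line means, no slope on body weight, age or depth was called. The calls were 0 of 7 genes for each and 0% of 11284 genes, which does not show the absence of a relation. At an unadjusted limit of 0.05, 1 of the 7 genes passed for body weight and 0 of 7 for age and for depth. It was Akr1c12, whose log2 level was higher by 1.35 per 10 g of body weight (95% interval 0.29 to 2.42, limma, adjusted p = 0.536). Since the lines form 2 separate clusters for Akr1c12, this slope cannot tell a graded rise from a difference in weight between the clusters. Over all genes, 8.14% passed that unadjusted limit for body weight, 5.87% for age and 3.72% for depth.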

How the data were processed

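Livers of 55 mice were grouped into 29 CC lines by their labels, which name no batch. Read pairs of 50 bases each from stranded polyA libraries were aligned by the authors to mm9 transcripts (Ensembl annotation) with Bowtie, and each mouse was quantified with RSEM 1.2.18, per the labels and the study's methods. The deposited expected counts are RSEM's estimated fragments per gene and isoform, not normalized, with fragments that match several genes divided among them. The deposited FPKM and TPM are levels per effective transcript length and per library total, as RSEM computes them. The deposited isoform ratios are percent of a gene's expression. Depth, the sum of expected counts, was 20.5 to 34.0 M per mouse, and Akr1c12 rested on as few as 124 fragments.

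Symbols were matched for 37205 of 37620 gene IDs. Differences among lines were tested by edgeR 4.0.16 (quasi-likelihood F test, TMM, its expression filter) on the expected counts, rounded first to whole numbers, of 47 mice from 21 lines. The 29 contrasts of a line against the others used all 55 mice, with adjustment over all genes and contrasts together. Isoform ratios (maximum FPKM of at least 2, at least 12 levels after rounding to bins of the maximum over 200, floor 0.5) were tested by limma 3.58.1 on van der Waerden scores, which also gave the intraclass correlations (estimated from the mean squares between and within lines, a description). Correlations used line means of log2(FPKM + 1), 100000 two-sided permutations and all pairs of members with bile acid and steroid genes. Lines were called separate clusters where the largest gap exceeded 0.4 of the range. Slopes were fitted by limma. P-values were adjusted by Benjamini-Hochberg with a threshold of 0.05. DESeq2 1.42.0 was an alternative, along with other normalizations, filters, pseudocounts, units, transformations, lines and left-out mice. Scripts were tested on simulated counts and scores. Identity and shared windows came from Ensembl transcripts on mm9, and promoters from RefSeq on GRCm38.p6. The calculations used Python 3.11.15, numpy 2.4.6, scipy 1.17.1, pandas 2.3.3, Biopython 1.88, matplotlib 3.10.9 and R 4.3.3.

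The members and the gene lists were chosen with earlier results of these data known. The text names the members, the 3 genes closest to each by r (1 of those of Akr1d1 is not reported here), the other aldo-keto reductases with a maximum of at least 2 FPKM, and, of the bile acid and steroid lists, among those kept as traits the 4 with the highest and the 4 with the lowest intraclass correlation, and those whose correlation with a member passed. Line mates were not counted as 1 sample. Each of 31 pairs differed beyond sampling noise (chi-square per gene of 13.5 or more), which does not show line mates to be independent.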

Additional observations from a re-analysis of the deposited data

How the results depend on the processing

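The 7 calls among lines held under all 7 alternatives, including DESeq2, the 4 isoform calls held but for Akr1c20 on untransformed percentages, no slope was called under 3 alternatives, and leaving out each of 47 mice kept 7 of 7 and 4 of 4. The median intraclass correlation of 0.71 ran from 0.69 to 0.80 over left-out mice, with a jackknife standard error of 0.15. It ran from 0.66 (TPM) to 0.81 (FPKM without transformation) over other scales. That of single genes moved most for Akr1c13, to 0.92 on FPKM without transformation. With TPM in place of FPKM, 3 pairs of members were called in place of 1, and the highest line's summed Akr1c level was 2.72 times the lowest in place of 2.40; the cause was not tested. Leaving out each line gave 1 or 2 called pairs, with 2 without IL-1061. Relations within the 22 lines were chosen after the data were seen, and r of Akr1c12 with Akr1c19 ran from 0.81 to 0.86 over left-out lines. With only the 21 lines of 2 or 3 mice, Akr1c12 was called higher in 12 lines and lower in 3. Of the lines with low Akr1c12, this setting keeps IL-1061, IL-2146 and IL-1513, since the others have 1 mouse each. Akr1d1 was called higher in 2 lines, while 18.2% of contrasts over all genes were called. The cause of the other changes was not tested. Without the filter on low counts, a setting that tests more genes, 54.8% of genes were called among lines in place of 88.5%. The part of the added genes in this was not tested. No paired analysis was possible because mice of different lines share no animal, litter or labelled replicate number. The 8 lines with 1 mouse, which hold the highest mean FPKM of 6 of the 7 genes, have no spread of their own. Genotypes were not used here.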
